A study of Mus musculus with 9 samples.

Results

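The Myc, Mycn and Mycl loci are described here by chromatin accessibility in mouse embryonic stem cells. The counted regions that lay in, or within 150 kb of, the RefSeq span of each gene were taken, which gave 128 of 157497 regions: 42 at Myc, 47 at Mycn and 39 at Mycl. Another protein-coding gene was nearer than the MYC family gene for 32 of the 128, of which 31 lay at Mycl and 1 at Mycn. The rule uses position alone. At the 150 kb limit, the outermost regions taken averaged 1.12 to 59.5 CPM (read counts of a region scaled to a library of 1000000 reads) in NanogKO:Esrrb:Nanog, 1.39 to 33.1 CPM in NanogKO:Esrrb and 1.49 to 26.3 CPM in NanogKO, and the nearest ones beyond it 0.442 to 9.42, 0.763 to 7.63 and 0.419 to 4.89 CPM. Those beyond it lay 152152 to 523752 bp from the gene, and the farthest, at Myc, had the lowest values. All 128 regions passed the filter on low counts.

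Accessibility was measured by ATAC-seq, in which a transposase cuts open DNA and tags the fragments for sequencing, in 9 libraries of 3 groups with 3 libraries each. NanogKO:Esrrb:Nanog cells carried a Nanog knockout with Esrrb and Nanog added, NanogKO:Esrrb cells the knockout with Esrrb added, and NanogKO cells the knockout alone. All 3 groups were grown in medium that held 10% serum and leukaemia inhibitory factor (LIF) at 1000 U/ml, received no other treatment, and were flow sorted for cells with PECAM on their surface and without PDGFRA. The question of the comparisons is how accessibility differs with the added factors in cells that all share the knockout. The labels do not say how Esrrb or Nanog was added, and the cell line name given to NanogKO differs from the one that the other groups share. Every group also has a code of its own in the titles, so a comparison of groups is also a comparison of differently coded cells. Nothing in the labels says that replicates came from separate cultures, so p-values rest on differences among these libraries that may be technical only. In these bulk libraries, more open copies per cell and more cells with an open copy cannot be told apart.

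MYC, MYCN and MYCL are closely related transcription factors that pair with MAX, bind E-box sequences and raise the expression of genes for ribosome production, metabolism and cell division. In mouse embryonic stem cells Myc is known as a target of LIF and STAT3 signalling, and Myc and Mycn can stand in for each other in keeping these cells self-renewing. Mycl is best known from dendritic cells and from human small-cell lung cancer. NANOG is a homeodomain factor and ESRRB an orphan nuclear receptor, and both bind many regulatory regions of the pluripotency network.

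Total counts per library ranged from 35545030 to 58520948, and the counts of a single region at the 3 loci from 9 to 3505 in a library. The first principal component of all regions held 65.2% of the variance and placed NanogKO:Esrrb:Nanog at 92.2 to 112.7, NanogKO:Esrrb at 14 to 44.4, and NanogKO at -137.0 to -123.0. The second component (15.5%) placed NanogKO:Esrrb at -65 to -62 and NanogKO at 17.6 to 21.9. On it, replicate 3 of NanogKO:Esrrb:Nanog, at 11.8, lay apart from the other libraries of its group at 55.3 and 62.6. Marker regions were open in every library, those of embryonic stem cells and of other lineages alike. The region of highest CPM in or within 1 kb of each marker gene was taken. Over the 7 embryonic stem cell markers these summed to 226.9 to 266.9 CPM in NanogKO:Esrrb:Nanog, 209.4 to 241.6 CPM in NanogKO:Esrrb and 159.2 to 177.7 CPM in NanogKO, and at 4 of the 7 every NanogKO library was below all others. The 6 primitive endoderm markers summed to 157.2 to 174.0, 145.4 to 171.7 and 177.5 to 198.0 CPM in the same order of groups, with every NanogKO library above all others at 2 of the 6. The 4 mesendoderm and 4 fibroblast markers summed to 86.6 to 111.3 and 33.9 to 42.1 CPM over all libraries, with every NanogKO library above all others at 1 gene of each list. Pou5f1, the gene of OCT4, had 50.6 to 56.3 CPM in NanogKO:Esrrb:Nanog, 31.1 to 35 CPM in NanogKO:Esrrb and 15.0 to 18.9 CPM in NanogKO. Of the primitive endoderm markers, Sox17 had 66.8 to 78.2, 68.0 to 83.4 and 88.2 to 97.9 CPM in the same order of groups, while Pdgfra had 14.6 to 19.6, 13.2 to 13.7 and 11.1 to 13.9 CPM. Of the 21 genes in the 4 marker lists (embryonic stem cell, primitive endoderm, mesendoderm and fibroblast), none was without reads, so an open region at a marker did not by itself check the cell type, and the part of these markers in the results at the 3 loci was not tested.

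The RefSeq promoter sequences of Mycn and Mycl (GRCm38.p6, the assembly of mm10) are shown. For Myc no promoter sequence was available, so the motif search below did not cover it. The counted regions at the 5′ ends of Mycn and Mycl differed little between groups, while other regions of these loci did differ. Each run is the 250 bases before the transcription start, 5′ to 3′ on the gene's strand, at chr12:12941837-12942086 on the minus strand for Mycn and chr4:122995681-122995930 on the plus strand for Mycl. Capitals mark matches to TTTGGCGC, an E2F-type motif that was picked after the sequence had been seen.
Mycn: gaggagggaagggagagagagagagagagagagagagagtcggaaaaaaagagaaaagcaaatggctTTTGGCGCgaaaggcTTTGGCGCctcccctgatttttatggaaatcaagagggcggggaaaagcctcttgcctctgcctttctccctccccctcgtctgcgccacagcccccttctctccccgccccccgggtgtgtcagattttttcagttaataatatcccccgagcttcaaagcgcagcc
Mycl: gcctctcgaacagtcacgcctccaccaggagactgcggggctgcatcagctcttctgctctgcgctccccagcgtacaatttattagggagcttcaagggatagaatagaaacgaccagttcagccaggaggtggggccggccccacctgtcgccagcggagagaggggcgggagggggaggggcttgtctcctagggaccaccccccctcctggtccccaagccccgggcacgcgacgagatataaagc

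Motifs were searched as exact letters on both strands in the 300 bases that add the first 50 transcribed bases to each run. TTTGGCGC occurred 2 times in the Mycn window, starting 183 and 168 bases before the transcription start, and 0 times in the Mycl window. It was found in 0.514% of 32851 RefSeq promoter windows of this length. The nuclear receptor core sequence AAGGTCA, its extended form TCAAGGTCA that ESRRB prefers (which contains the core), the E-box CACGTG and the STAT-type motif TTCCNGGAA had 0 matches in both windows. These 4 motifs occurred in 4.72%, 0.423%, 7.15% and 1.15% of all promoter windows. The Mycl window lay inside a counted region, whereas the Mycn window overlapped none and lay 155 bp from the nearest.

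Myc (gene 17869, mm10 chr15:61985341-61990361) has no other protein-coding gene within 150 kb, and its counted regions were unevenly spread, with 31 more than 2 kb beyond its high-coordinate end, where the long non-coding RNA gene Pvt1 begins 47625 bp away, and 5 more than 2 kb beyond its low-coordinate end. Accessibility rose at many of the regions towards and within Pvt1. Against NanogKO, NanogKO:Esrrb:Nanog had 17 of the 42 regions higher and 2 lower, and the median log2 fold change was 0.27, where 49.3% of all tested regions were called in either direction, 24.9% higher and 24.4% lower, with a median of -0.01. A region was called at an adjusted p under 0.05 in edgeR's quasi-likelihood test with Benjamini-Hochberg adjustment over all tested regions. NanogKO:Esrrb had 12 regions higher and 3 lower against NanogKO (median 0.08), where 37.0% of all regions were called, 20.0% higher and 17.0% lower. Between NanogKO:Esrrb:Nanog and NanogKO:Esrrb, 8 regions were higher and 0 lower with Nanog, with a median of 0.13, where 24.6% of all regions were called, 12.6% higher and 12.0% lower. The total share called at Myc (45.2%, 35.7% and 19.0%) was near or below that of all regions in each comparison, and the calls at the locus were mostly rises. The libraries of the groups did not overlap at 20, 19 and 13 of the 42 regions (47.6%, 45.2% and 31.0%), which is below the share of all regions in each comparison (54.5%, 51.9% and 37.7%).

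**Figure D1:**
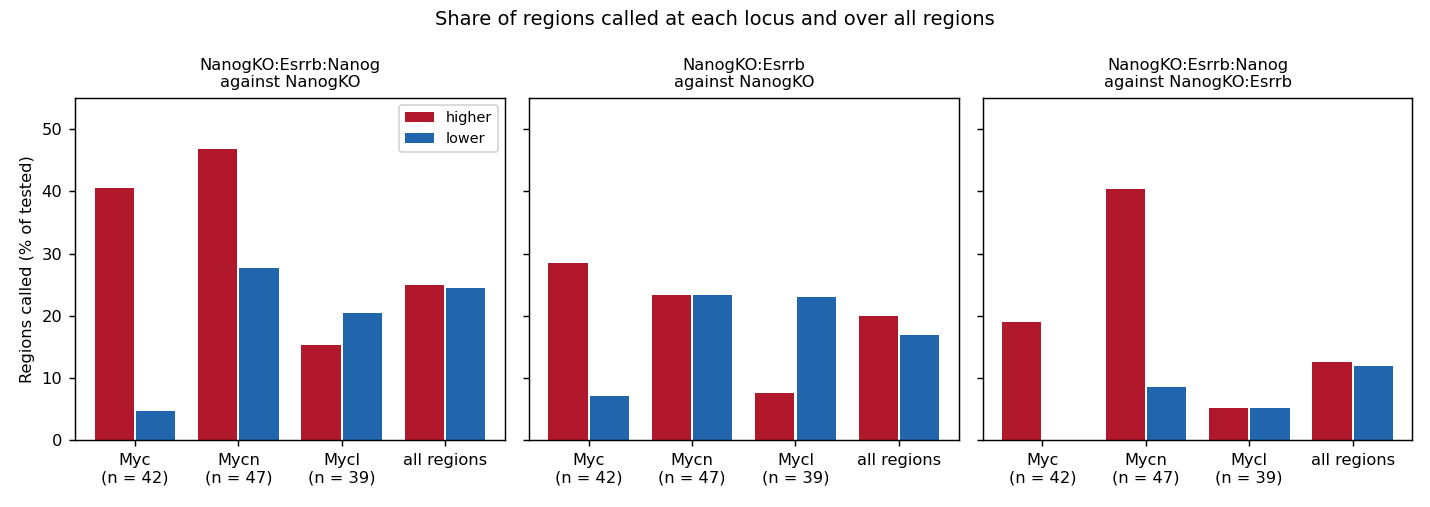
Share of tested regions called higher (red) and lower (blue) at an adjusted p under 0.05, as a percentage, at Myc (42 regions), Mycn (47), Mycl (39) and over all regions, for each of the 3 comparisons. Rises exceed falls at Myc in every panel and at Mycn where NanogKO:Esrrb:Nanog is compared, while over all regions the directions are nearly even.

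The region at the low-coordinate end of Myc (chr15:61985387-61985870, inside the gene) had 24.7, 25 and 20.5 CPM in NanogKO:Esrrb:Nanog, 24.8, 21.5 and 23.5 CPM in NanogKO:Esrrb, against 24.6, 21.7 and 20.7 CPM in NanogKO. The groups overlapped throughout, and no comparison was called, with log2 fold changes of 0.07 ± 0.12 (SE), 0.06 ± 0.12 and 0.01 ± 0.12. Another region in the gene (chr15:61986997-61987279) had 24.7, 23.4 and 17.8 CPM in NanogKO:Esrrb:Nanog, 14.4, 12.5 and 15.6 CPM in NanogKO:Esrrb, against 14.3, 14.6 and 16.2 CPM in NanogKO. All 3 NanogKO:Esrrb:Nanog libraries were above those of both other groups, which overlapped each other. This region was higher in NanogKO:Esrrb:Nanog by 0.54 ± 0.13 on the log2 scale against NanogKO (adjusted p = 0.001) and by 0.63 ± 0.13 against NanogKO:Esrrb (adjusted p = 0.001). The remaining region in the span (chr15:61987892-61988281) had group means of 7.34 ± 1.43, 5.69 ± 0.271 and 6.94 ± 0.417 CPM (SD, n = 3 each) in NanogKO:Esrrb:Nanog, NanogKO:Esrrb and NanogKO, and was not called, although NanogKO:Esrrb:Nanog passed against NanogKO:Esrrb without NanogKO:Esrrb:Nanog replicate 1 (0.47, adjusted p = 0.045). Counting the 6 regions in the gene or within 2 kb, 1 was higher in NanogKO:Esrrb:Nanog than in NanogKO, 0 were called in NanogKO:Esrrb against NanogKO, and 2 were higher in NanogKO:Esrrb:Nanog than in NanogKO:Esrrb. These are called shares of 16.7%, 0% and 33.3%, where all regions gave 49.3%, 37.0% and 24.6%.

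In the interval between Myc and Pvt1, 9 regions were counted. Of these, 6 were higher and 0 lower in NanogKO:Esrrb:Nanog than in NanogKO, 5 were higher and 0 lower in NanogKO:Esrrb against NanogKO, and 1 was higher in NanogKO:Esrrb:Nanog than in NanogKO:Esrrb. The called shares of 66.7%, 55.6% and 11.1% compare with 49.3%, 37.0% and 24.6% of all regions. The region 4328 bp from the gene (chr15:61994689-61995592) had 12.6, 14.2 and 16.1 CPM in NanogKO:Esrrb:Nanog, 15.8, 15.7 and 14.5 CPM in NanogKO:Esrrb, against 6.90, 6.12 and 8.51 CPM in NanogKO. Both groups with added Esrrb stood above every NanogKO library and overlapped each other. The log2 fold change against NanogKO was 0.99 ± 0.14 in NanogKO:Esrrb:Nanog (adjusted p = 8.9e-07) and 1.09 ± 0.14 in NanogKO:Esrrb (adjusted p = 4.1e-07), and the difference between these groups was -0.10 ± 0.13 (adjusted p = 0.62).

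A region 22316 bp from Myc (chr15:62012677-62012975) had another pattern. It had 8.63, 8.48 and 11.9 CPM in NanogKO:Esrrb:Nanog, 3.28, 2.83 and 3.31 CPM in NanogKO:Esrrb, against 1.19, 1.19 and 1.56 CPM in NanogKO. The 3 groups did not overlap, and the order was the same in all libraries. NanogKO:Esrrb exceeded NanogKO by 1.25 ± 0.19 (adjusted p = 8.3e-06) and NanogKO:Esrrb:Nanog exceeded NanogKO:Esrrb by 1.63 ± 0.17 (adjusted p = 3.2e-07) on the log2 scale. It was the region with the largest rise at the locus in all 3 comparisons. Of the deposited peak lists, only that of NanogKO:Esrrb:Nanog held a peak here, so the region was counted through the group where it was highest. Nearer Pvt1, 41489 bp from Myc, chr15:62031850-62032591 had 13.4, 13.8 and 13 CPM in NanogKO:Esrrb:Nanog, 11.6, 10.5 and 11.3 CPM in NanogKO:Esrrb, against 6.78, 5.71 and 6.14 CPM in NanogKO. Here the largest gap lay between NanogKO and both other groups, with log2 fold changes of 1.11 ± 0.13 and 0.84 ± 0.13 (adjusted p = 4.8e-08 and 6.7e-06), and the difference of 0.26 ± 0.12 between NanogKO:Esrrb:Nanog and NanogKO:Esrrb did not pass (adjusted p = 0.11).

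Within Pvt1, a non-coding RNA gene that is often co-amplified with MYC in human tumours, 22 regions were counted, of which 9 were higher and 1 lower in NanogKO:Esrrb:Nanog than in NanogKO. In NanogKO:Esrrb 7 were higher and 2 lower than in NanogKO, and 3 were higher in NanogKO:Esrrb:Nanog than in NanogKO:Esrrb. The called shares of 45.5%, 40.9% and 13.6% were near those of all regions against NanogKO (49.3% and 37.0%) and below that of all regions between the other groups (24.6%). The region at 64707 bp (chr15:62055068-62055577) had 7.55, 9.30 and 10.0 CPM in NanogKO:Esrrb:Nanog, 3.99, 5.48 and 2.91 CPM in NanogKO:Esrrb, against 1.73, 2.06 and 1.84 CPM in NanogKO. Its groups did not overlap, and each step was about as large as the other, with log2 fold changes of 1.13 ± 0.20 for NanogKO:Esrrb against NanogKO (adjusted p = 5.6e-05) and 1.12 ± 0.18 between NanogKO:Esrrb:Nanog and NanogKO:Esrrb (adjusted p = 0.00011). The neighbouring region at 63206 bp (chr15:62053567-62053817) went the other way. It had 0.726, 0.822 and 0.726 CPM in NanogKO:Esrrb:Nanog, 0.795, 0.837 and 0.592 CPM in NanogKO:Esrrb, against 2.85, 3.60 and 3.71 CPM in NanogKO. Both groups with added Esrrb were below every NanogKO library, with log2 fold changes of -2.17 ± 0.23 and -2.19 ± 0.23 (adjusted p = 1.6e-08 and 2.4e-08), and differed from each other by 0.02 ± 0.26. This region had a peak in the NanogKO list alone, so it was counted through the group where it was highest. The region of highest CPM at the locus (chr15:62092412-62093203, 102051 bp from Myc and also in Pvt1) had means of 64.2 ± 5.88, 58.4 ± 5.09 and 58.1 ± 9.17 CPM (SD, n = 3 each) in NanogKO:Esrrb:Nanog, NanogKO:Esrrb and NanogKO, overlapped between groups and was called in no comparison.

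On the low-coordinate side, where no annotated protein-coding gene lies within the window, the 5 regions beyond 2 kb gave 1 higher and 1 lower in NanogKO:Esrrb:Nanog against NanogKO, 1 lower in NanogKO:Esrrb against NanogKO, and 2 higher in NanogKO:Esrrb:Nanog against NanogKO:Esrrb. These are called shares of 40%, 20% and 40%, where all regions gave 49.3%, 37.0% and 24.6%. The region at 57086 bp (chr15:61927657-61928255) had 5.50, 6.04 and 7.83 CPM in NanogKO:Esrrb:Nanog, 3.04, 4.24 and 3.51 CPM in NanogKO:Esrrb, against 4.73, 6.41 and 5.01 CPM in NanogKO. NanogKO:Esrrb was lowest in this region, by -0.58 ± 0.17 on the log2 scale against NanogKO (adjusted p = 0.0098), and NanogKO:Esrrb:Nanog was higher than NanogKO:Esrrb by 0.85 ± 0.17 (adjusted p = 0.0011). The fall against NanogKO no longer passed without NanogKO replicate 2 (adjusted p = 0.093) or without NanogKO:Esrrb replicate 1 (adjusted p = 0.069). The farthest region, 146463 bp from Myc (chr15:61838535-61838878), was lower in NanogKO:Esrrb:Nanog than in NanogKO by -0.64 ± 0.26 (adjusted p = 0.043), but its libraries overlapped and the call was lost when any of 6 libraries was left out, with adjusted p of up to 0.227, and in DESeq2 (0.050), with only these groups in the fit (0.060) and with quantile normalization (0.069).

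**Figure D2:**
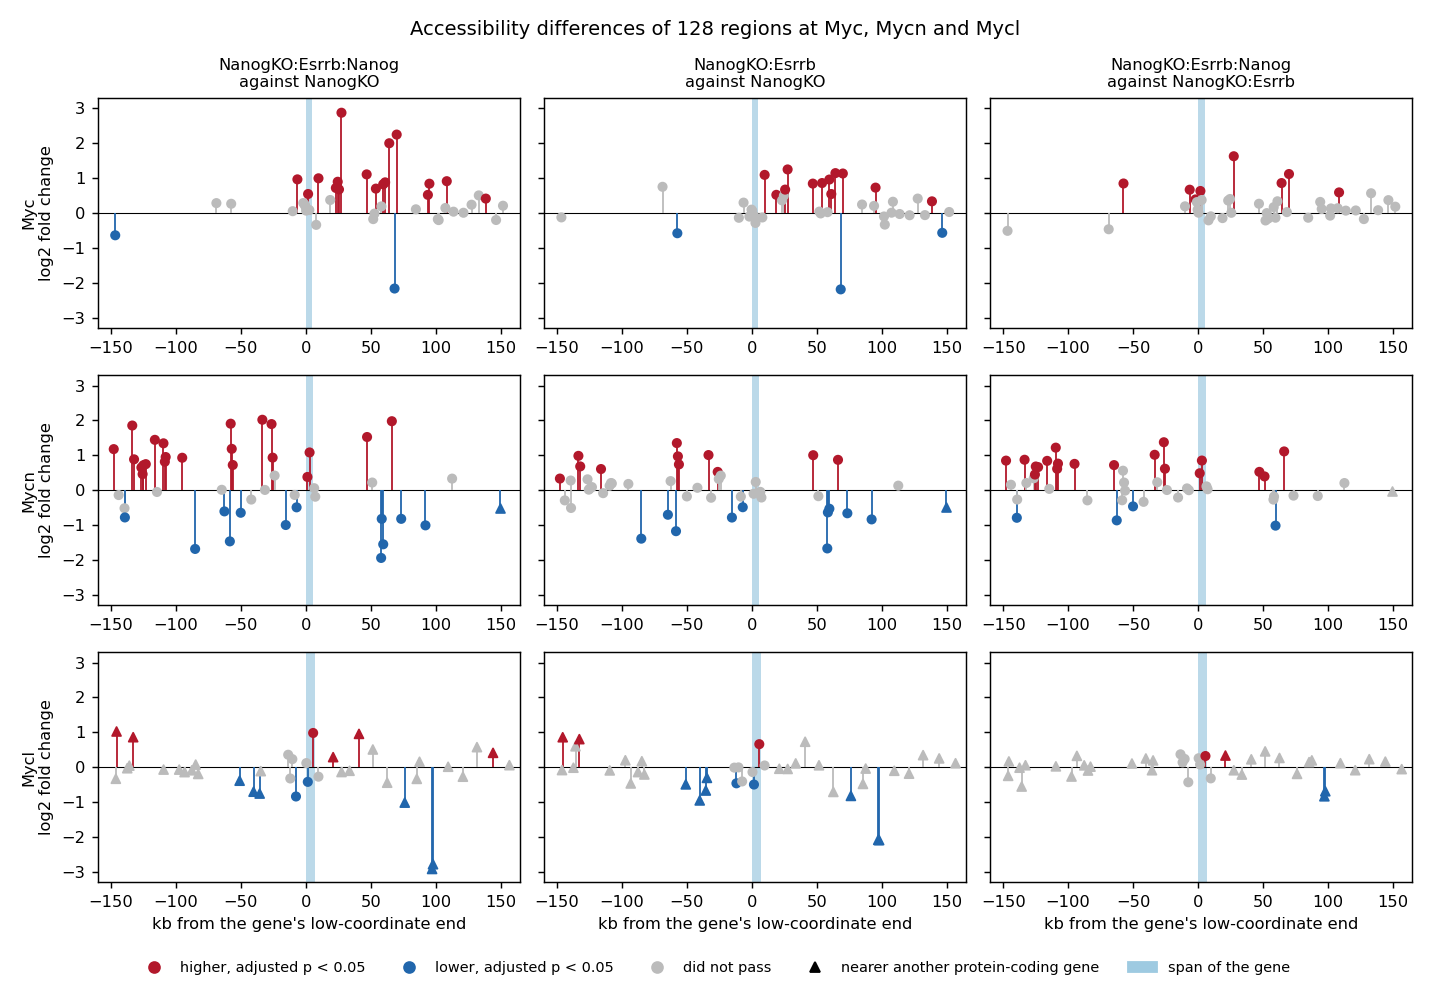
Log2 fold change of each of the 128 regions (vertical axis) against its distance from the low-coordinate end of Myc, Mycn or Mycl in kb (horizontal axis), for the 3 comparisons, with called rises in red, called falls in blue, regions that did not pass in grey and regions nearer another protein-coding gene as triangles. The rises at Myc stand mostly to the right of the gene, those at Mycn mostly to the left, and the largest falls at Mycl lie more than 90 kb to the right.

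Mycn (gene 18109, mm10 chr12:12936093-12941836, minus strand) lies in a stretch with no other protein-coding gene within 150 kb, and the helicase gene Ddx1 was the nearest gene for the outermost region only. A larger share of its regions differed than at the other loci. Against NanogKO, NanogKO:Esrrb:Nanog had 22 of the 47 regions higher and 13 lower (74.5% called, where 49.3% of all regions were), and the median log2 fold change was 0.33. NanogKO:Esrrb had 11 higher and 11 lower against NanogKO (46.8%, where all regions gave 37.0%), with 0.07 as the median. Against NanogKO:Esrrb, NanogKO:Esrrb:Nanog had 19 higher and 4 lower (48.9%, where all regions gave 24.6%), with 0.20 as the median. The libraries of the groups did not overlap at 34, 24 and 23 of the 47 regions in these comparisons, or 72.3%, 51.1% and 48.9%, where 54.5%, 51.9% and 37.7% of all regions did not. For the last count, 13 regions were called without NanogKO:Esrrb replicate 1 and 15 without NanogKO:Esrrb replicate 3. Calls over all regions fell too, from 19777 higher and 18935 lower to 13393 and 12996 without the first library. Without the second they fell to 12526 and 12066. Beyond 2 kb of the gene, 17 of 43 regions were higher and 4 lower in that comparison, while over all regions more than 2 kb from a protein-coding gene 10.6% were higher and 16.2% lower.

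The region at the 5′ end of Mycn (chr12:12942241-12942902, 405 bp before the gene and 155 bp from the promoter window printed above) had 26.6, 20.4 and 20.5 CPM in NanogKO:Esrrb:Nanog, 22.6, 19.1 and 21 CPM in NanogKO:Esrrb, against 26.9, 20.8 and 17.4 CPM in NanogKO. The groups overlapped, and the log2 fold changes were 0.05 ± 0.14, -0.05 ± 0.14 and 0.11 ± 0.14, none of them called. A region inside the gene (chr12:12938853-12939222) had 28.8, 21.2 and 25.6 CPM in NanogKO:Esrrb:Nanog, 14.1, 13.4 and 14.6 CPM in NanogKO:Esrrb, against 12.8, 12.1 and 11 CPM in NanogKO. All NanogKO:Esrrb:Nanog libraries were above the others. The log2 fold change was 1.08 ± 0.12 against NanogKO (adjusted p = 5.0e-08) and 0.85 ± 0.12 against NanogKO:Esrrb (adjusted p = 2.5e-05), while the difference of 0.23 ± 0.12 between NanogKO:Esrrb and NanogKO did not pass (adjusted p = 0.15). The other region in the gene (chr12:12937051-12937710) averaged 12.9 ± 1.74, 9.20 ± 1.66 and 9.90 ± 1.10 CPM (SD, n = 3 each) in NanogKO:Esrrb:Nanog, NanogKO:Esrrb and NanogKO. It was called against NanogKO (0.38 ± 0.14, adjusted p = 0.031) and against NanogKO:Esrrb (0.48 ± 0.14, adjusted p = 0.016), but its libraries overlapped and both calls were lost with library totals as the only scaling (adjusted p = 0.119 and 0.061) and with quantile normalization (0.24 and 0.35, adjusted p = 0.183 and 0.094). The call against NanogKO was also lost without NanogKO replicate 1 or 2 or NanogKO:Esrrb:Nanog replicate 2 or 3, and that against NanogKO:Esrrb without NanogKO:Esrrb replicate 1 or 2 or NanogKO:Esrrb:Nanog replicate 2 (adjusted p from 0.060 to 0.120).

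The low-coordinate side of Mycn, which is downstream of the gene, held 33 regions beyond 2 kb, of which 18 were higher and 7 lower in NanogKO:Esrrb:Nanog than in NanogKO, 9 higher and 5 lower in NanogKO:Esrrb against NanogKO, and 14 higher and 3 lower in NanogKO:Esrrb:Nanog than in NanogKO:Esrrb. The called shares were 75.8%, 42.4% and 51.5%, where all regions gave 49.3%, 37.0% and 24.6%. A region 26045 bp away (chr12:12909482-12910048, in the non-coding RNA gene Gm40271) had 14.3, 16.8 and 16.8 CPM in NanogKO:Esrrb:Nanog, 6.14, 6.43 and 5.97 CPM in NanogKO:Esrrb, against 3.98, 4.48 and 4.44 CPM in NanogKO. The 3 groups did not overlap, and the larger step was that between NanogKO:Esrrb:Nanog and NanogKO:Esrrb, with a log2 fold change of 1.37 ± 0.13 (adjusted p = 7.6e-08), beside 0.52 ± 0.14 for NanogKO:Esrrb against NanogKO (adjusted p = 0.0033). The region of highest CPM, 147049 bp away (chr12:12787589-12789044), had 61.9, 57.5 and 59.1 CPM in NanogKO:Esrrb:Nanog, 30.5, 38.1 and 30.7 CPM in NanogKO:Esrrb, against 27.2, 25.9 and 26.0 CPM in NanogKO. It showed the same order, with 0.84 ± 0.11 for NanogKO:Esrrb:Nanog against NanogKO:Esrrb (adjusted p = 8.4e-06) and 0.33 ± 0.11 for NanogKO:Esrrb against NanogKO (adjusted p = 0.022). The smaller of these calls was lost without NanogKO replicate 2, NanogKO replicate 3 or NanogKO:Esrrb replicate 2, with adjusted p of 0.080, 0.068 and 0.173.

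Other regions of this side were also higher against NanogKO in both groups with added Esrrb. At 133341 bp (chr12:12802392-12802752), values were 6.95, 8.39 and 8.44 CPM in NanogKO:Esrrb:Nanog, 4.19, 5.11 and 3.69 CPM in NanogKO:Esrrb, against 2.15, 2.00 and 2.43 CPM in NanogKO. No library of one group overlapped another, and the log2 fold changes were 0.98 ± 0.17 for NanogKO:Esrrb against NanogKO and 0.87 ± 0.16 between NanogKO:Esrrb:Nanog and NanogKO:Esrrb (adjusted p = 5.2e-05 and 0.00038). At 57654 bp (chr12:12878208-12878439), values were 3.19, 4.4 and 3.56 CPM in NanogKO:Esrrb:Nanog, 2.42, 3.03 and 2.09 CPM in NanogKO:Esrrb, against 0.634, 1.21 and 1.07 CPM in NanogKO. The rise against NanogKO was 1.90 ± 0.23 in NanogKO:Esrrb:Nanog and 1.35 ± 0.24 in NanogKO:Esrrb (adjusted p = 1.6e-07 and 5.0e-05). The difference of 0.56 ± 0.21 between these groups missed the threshold (adjusted p = 0.057) and passed it with the replicate number as a block (adjusted p = 0.025), in DESeq2 (0.044), with its size factors in edgeR (0.047), with only these groups in the fit (0.044), without NanogKO replicate 1 (0.045) and without NanogKO:Esrrb replicate 2 (0.037). Over the other alternatives its adjusted p was up to 0.214, and the libraries of the groups did not overlap.

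Falls were found on this side as well. At 14879 bp (chr12:12920208-12921214), values were 5.35, 7.04 and 8.99 CPM in NanogKO:Esrrb:Nanog, 7.55, 10.6 and 6.68 CPM in NanogKO:Esrrb, against 15.4, 15.5 and 12.1 CPM in NanogKO. Both groups with added Esrrb were below NanogKO and overlapped each other, with log2 fold changes of -1.0 ± 0.17 and -0.79 ± 0.17 (adjusted p = 2.5e-05 and 0.00057). At 62281 bp (chr12:12873205-12873812), NanogKO:Esrrb:Nanog was the lowest group, with 1.95, 1.85 and 1.75 CPM, against 3.04, 3.32 and 3.76 CPM in NanogKO:Esrrb, against 3.19, 2.52 and 2.78 CPM in NanogKO. The difference was -0.87 ± 0.19 against NanogKO:Esrrb (adjusted p = 0.0017) and -0.61 ± 0.19 against NanogKO (adjusted p = 0.0095), and the call against NanogKO was lost without NanogKO replicate 1 (adjusted p = 0.051).

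On the high-coordinate side, upstream of the gene, most calls against NanogKO were falls. Of its 10 regions beyond 2 kb, 6 were lower and 2 higher in NanogKO:Esrrb:Nanog than in NanogKO, the same numbers were lower and higher in NanogKO:Esrrb, and 1 was lower and 3 higher in NanogKO:Esrrb:Nanog than in NanogKO:Esrrb. Over all regions more than 2 kb from a protein-coding gene, 29.1% were lower and 24.7% higher in NanogKO:Esrrb:Nanog, and 17.9% lower and 23.3% higher in NanogKO:Esrrb, both against NanogKO. At 52125 bp (chr12:12993961-12994258, in the non-coding RNA gene Gm35208), values were 1.45, 1.06 and 0.744 CPM in NanogKO:Esrrb:Nanog, 1.33, 1.44 and 1.13 CPM in NanogKO:Esrrb, against 3.85, 5.07 and 3.53 CPM in NanogKO. NanogKO stood above both other groups, which overlapped, with log2 fold changes of -1.95 ± 0.24 and -1.67 ± 0.23 (adjusted p = 1.2e-07 and 1.5e-06). At 53549 bp (chr12:12995385-12996050), values were 0.933, 1.32 and 1.75 CPM in NanogKO:Esrrb:Nanog, 2.62, 2.38 and 3.18 CPM in NanogKO:Esrrb, against 3.88, 4.17 and 3.81 CPM in NanogKO. The 3 groups did not overlap here, and the difference was -1.02 ± 0.22 between NanogKO:Esrrb:Nanog and NanogKO:Esrrb (adjusted p = 0.0014) and -0.54 ± 0.20 between NanogKO:Esrrb and NanogKO (adjusted p = 0.036). The call for NanogKO:Esrrb against NanogKO was lost without any one of NanogKO replicates 1 to 3 or NanogKO:Esrrb replicates 1 and 2, with adjusted p of up to 0.140, and with library totals as the only scaling (0.052). Among the risers on this side, a region 60263 bp away (chr12:13002099-13002600, chosen after its values were seen) averaged 7.71, 3.58 and 1.96 CPM in NanogKO:Esrrb:Nanog, NanogKO:Esrrb and NanogKO and was higher by 1.98 on the log2 scale in NanogKO:Esrrb:Nanog than in NanogKO.

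**Figure D3:**
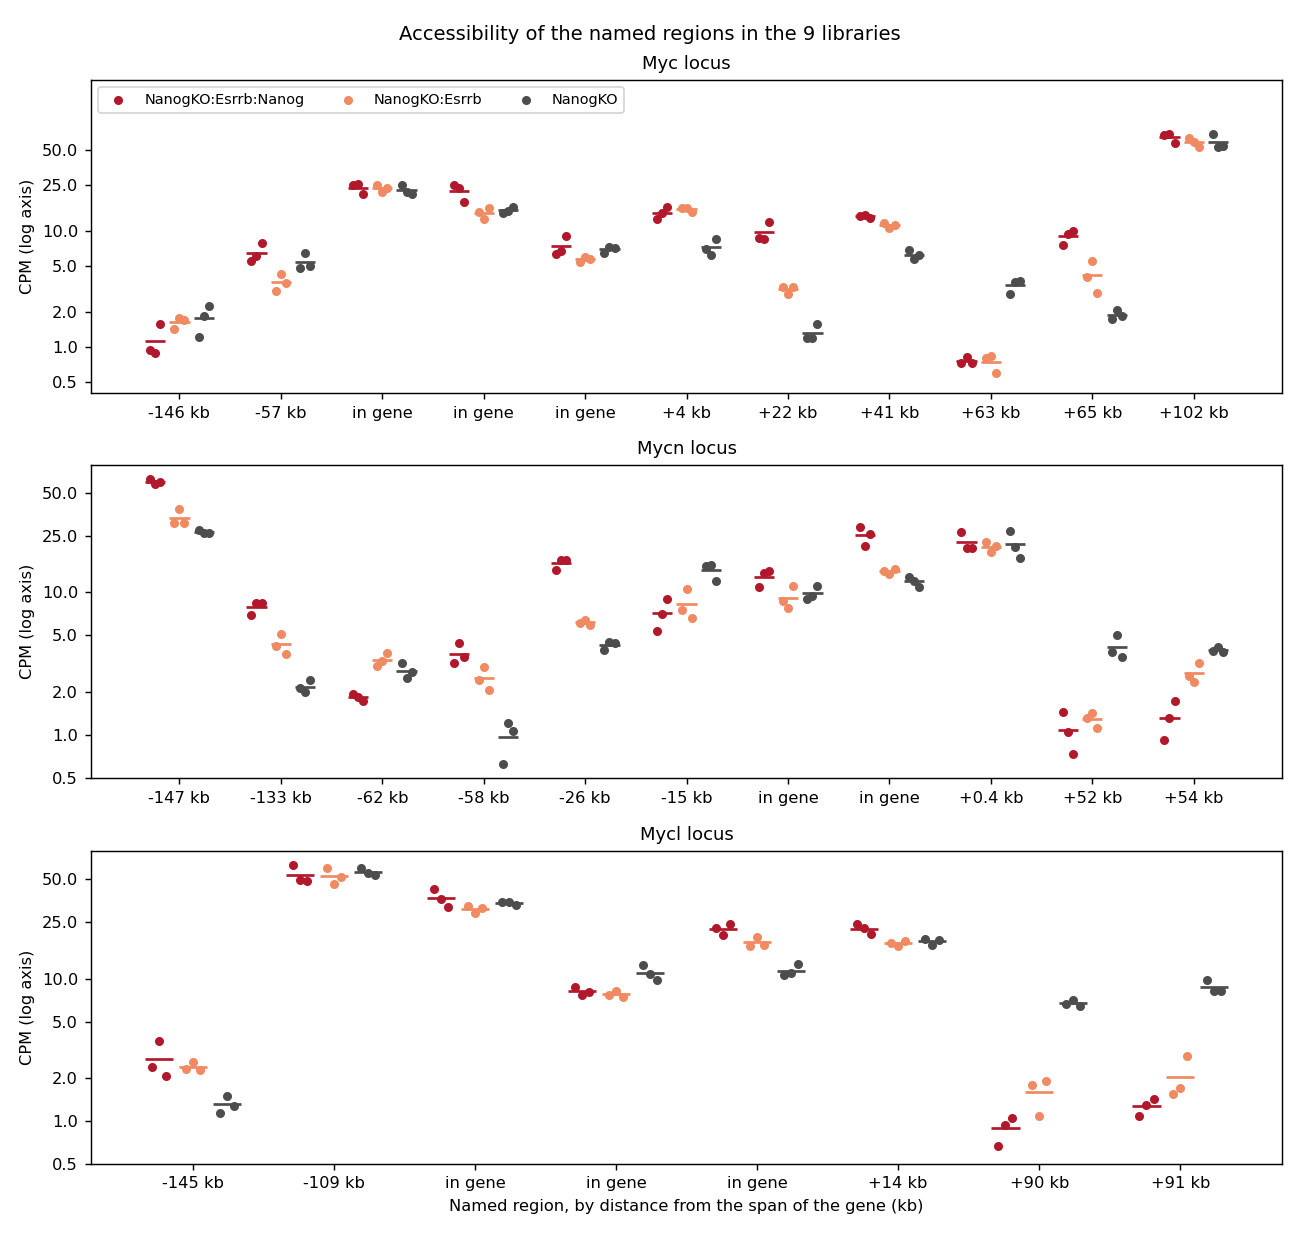
CPM of the named regions on a log axis in each of the 9 libraries (points) with the group mean (bar), for NanogKO:Esrrb:Nanog (red), NanogKO:Esrrb (orange) and NanogKO (grey), ordered by distance from the gene in kb. At Myc +22 kb and at Mycn -26 kb the 3 groups are separate and NanogKO:Esrrb:Nanog is highest, at Myc +4 kb both groups with Esrrb are level above NanogKO, and at the last regions of Mycl NanogKO is highest.

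Mycl (gene 16918, mm10 chr4:122995588-123002490, plus strand) sits among other protein-coding genes, and only 8 of its 39 regions had it as the nearest one. Falls were at least as frequent as rises here. Against NanogKO, NanogKO:Esrrb:Nanog had 6 regions higher and 8 lower (35.9% called, where 49.3% of all regions were), and the median log2 fold change was -0.09. NanogKO:Esrrb had 3 higher and 9 lower against NanogKO (30.8%, where all regions gave 37.0%), with -0.08 as the median. Against NanogKO:Esrrb, NanogKO:Esrrb:Nanog had 2 higher and 2 lower (10.3%, where all regions gave 24.6%), with 0.08 as the median. The libraries of the groups did not overlap at 18, 23 and 8 of the 39 regions in the same comparisons (46.2%, 59% and 20.5%), where 54.5%, 51.9% and 37.7% of all regions did not. The number of regions called between NanogKO:Esrrb:Nanog and NanogKO:Esrrb was 0 without NanogKO:Esrrb replicate 3 or without NanogKO:Esrrb:Nanog replicate 1, 1 without NanogKO:Esrrb replicate 1 and 2 without NanogKO:Esrrb:Nanog replicate 2. Calls over all regions also fell without each of these libraries, for NanogKO:Esrrb replicate 3 from 19777 higher and 18935 lower to 12526 and 12066. With library totals as the only scaling or with quantile normalization, the 2 rises were lost and 2 falls were called. Among the 8 regions nearest Mycl, 1 was higher and 2 lower in NanogKO:Esrrb:Nanog than in NanogKO, 1 higher and 2 lower in NanogKO:Esrrb against NanogKO, and 1 higher in NanogKO:Esrrb:Nanog than in NanogKO:Esrrb. These are called shares of 37.5%, 37.5% and 12.5%, where all regions gave 49.3%, 37.0% and 24.6%.

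The region that holds the Mycl promoter window (chr4:122995376-122996716) had 43.0, 36.2 and 32.2 CPM in NanogKO:Esrrb:Nanog, 32.6, 29.2 and 31.4 CPM in NanogKO:Esrrb, against 34.9, 34.8 and 33.0 CPM in NanogKO. It was not called in any comparison, with log2 fold changes of 0.12 ± 0.12 and -0.14 ± 0.12 against NanogKO and 0.26 ± 0.12 between NanogKO:Esrrb:Nanog and NanogKO:Esrrb (adjusted p = 0.10). That last difference passed with the replicate number as a block (0.25, adjusted p = 0.046) and without NanogKO:Esrrb:Nanog replicate 3 (0.36, adjusted p = 0.016). The next region within the gene (chr4:122996928-122997397) had 8.79, 7.72 and 8.09 CPM in NanogKO:Esrrb:Nanog, 7.75, 8.17 and 7.43 CPM in NanogKO:Esrrb, against 12.4, 10.7 and 9.85 CPM in NanogKO. Both groups with Esrrb were below every NanogKO library, by -0.42 ± 0.13 and -0.50 ± 0.13 on the log2 scale (adjusted p = 0.0095 and 0.0036), and the fall in NanogKO:Esrrb:Nanog was lost without NanogKO replicate 1 (adjusted p = 0.072).

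Towards the other end of the gene, chr4:123000672-123001881 had 22.8, 20.3 and 24.5 CPM in NanogKO:Esrrb:Nanog, 16.9, 19.8 and 17.4 CPM in NanogKO:Esrrb, against 10.6, 11 and 12.7 CPM in NanogKO. The groups did not overlap, and accessibility rose against NanogKO by 0.98 ± 0.12 in NanogKO:Esrrb:Nanog and 0.66 ± 0.12 in NanogKO:Esrrb (adjusted p = 1.7e-07 and 9.2e-05). The difference of 0.32 ± 0.12 between these groups was at the threshold (adjusted p = 0.049) and was lost when any of 7 libraries was left out, with adjusted p of up to 0.171. It was also lost with only these groups in the fit (adjusted p = 0.079), with library totals as the only scaling (0.22, adjusted p = 0.172) and with quantile normalization (0.16, adjusted p = 0.352). So within the span of Mycl, 1 region rose, 1 fell and the one at the 5′ end did not pass.

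The regions nearer other genes gave the largest falls of the window. A pair of regions in the non-coding RNA gene Gm12923, with the BMP ligand gene Bmp8b as the nearest protein-coding gene, lay 90193 and 90770 bp from Mycl. The first (chr4:123092683-123092938) had 0.664, 0.939 and 1.05 CPM in NanogKO:Esrrb:Nanog, 1.79, 1.09 and 1.90 CPM in NanogKO:Esrrb, against 6.68, 7.15 and 6.39 CPM in NanogKO. The other (chr4:123093260-123093767) had 1.08, 1.29 and 1.44 CPM in NanogKO:Esrrb:Nanog, 1.55, 1.71 and 2.89 CPM in NanogKO:Esrrb, against 9.85, 8.23 and 8.27 CPM in NanogKO. In both, every library of the groups with Esrrb lay far below NanogKO. The log2 fold changes were -2.92 ± 0.22 and -2.78 ± 0.21 in NanogKO:Esrrb:Nanog and -2.09 ± 0.21 and -2.09 ± 0.20 in NanogKO:Esrrb (adjusted p from 3.5e-11 to 1.0e-08). The further differences of -0.84 ± 0.24 and -0.69 ± 0.22 between NanogKO:Esrrb:Nanog and NanogKO:Esrrb were called (adjusted p = 0.011 and 0.024). Both of these calls were lost without NanogKO:Esrrb replicate 3 (adjusted p = 0.071 and 0.263) and without NanogKO:Esrrb:Nanog replicate 1 (adjusted p = 0.074 and 0.105), the first also without NanogKO:Esrrb replicate 1 (adjusted p = 0.051) and the second also without NanogKO:Esrrb:Nanog replicate 2 (adjusted p = 0.055), with only these groups in the fit (0.051) and with quantile normalization (0.079).

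Other genes of the window changed less. A region in Ppt1, which encodes a lysosomal thioesterase, rose against NanogKO by 1.02 ± 0.23 in NanogKO:Esrrb:Nanog and 0.86 ± 0.22 in NanogKO:Esrrb (chr4:122849871-122850091, adjusted p = 0.00049 and 0.0035), at 2.41, 3.67 and 2.08 CPM, 2.31, 2.58 and 2.28 CPM, and 1.15, 1.51 and 1.28 CPM in NanogKO:Esrrb:Nanog, NanogKO:Esrrb and NanogKO. A region at Trit1, the gene of a tRNA-modifying enzyme (chr4:123016424-123016905), had 24.2, 22.6 and 20.6 CPM, 17.9, 17.0 and 18.6 CPM, and 19.0, 17.4 and 18.8 CPM in the same groups. NanogKO:Esrrb:Nanog stood above the others, by 0.29 ± 0.11 against NanogKO and 0.33 ± 0.11 against NanogKO:Esrrb (adjusted p = 0.035 and 0.030), and each call was lost when any of 5 libraries was left out, with adjusted p of up to 0.135. Both calls were also lost with only the groups compared in the fit (adjusted p = 0.053 and 0.067), with library totals as the only scaling (0.19 and 0.23, adjusted p = 0.123 and 0.10) and with quantile normalization (0.15 and 0.17, adjusted p = 0.219 and 0.215). The region of highest CPM, at the actin regulator gene Cap1 (chr4:122885559-122886782), had means of 53.9 ± 8.36, 53.0 ± 6.63 and 56.5 ± 3.07 CPM (SD, n = 3 each) in NanogKO:Esrrb:Nanog, NanogKO:Esrrb and NanogKO. It was called in no comparison, but with quantile normalization it was lower in NanogKO:Esrrb:Nanog than in NanogKO (-0.20, adjusted p = 0.028).

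Counts were also summed over the regions of each locus, and the sums followed the same lines. Beyond 2 kb, the Myc sum was 322, 340 and 345 CPM in NanogKO:Esrrb:Nanog, 294, 318 and 274 CPM in NanogKO:Esrrb, against 257, 253 and 255 CPM in NanogKO. The 3 groups did not overlap, and the mean of NanogKO:Esrrb:Nanog was 1.32 times and that of NanogKO:Esrrb 1.16 times that of NanogKO (exact two-sided permutation p = 0.1 each, the smallest that 3 against 3 libraries allow). The Mycn sum was 286, 306 and 329 CPM in NanogKO:Esrrb:Nanog, 215, 252 and 219 CPM in NanogKO:Esrrb, against 232, 233 and 217 CPM in NanogKO. Only NanogKO:Esrrb:Nanog stood apart at Mycn, at 1.35 times NanogKO and 1.34 times NanogKO:Esrrb (exact permutation p = 0.1 each), while NanogKO:Esrrb and NanogKO overlapped (ratio 1.01, exact permutation p = 0.9). The Mycl sum, most of it from regions nearer other genes, was 270, 251 and 247 CPM in NanogKO:Esrrb:Nanog, 250, 236 and 246 CPM in NanogKO:Esrrb, against 289, 277 and 277 CPM in NanogKO. NanogKO was the highest group there, with ratios of 0.909 for NanogKO:Esrrb:Nanog and 0.867 for NanogKO:Esrrb against it (exact permutation p = 0.1 each). In the genes or within 2 kb, the mean sums in NanogKO:Esrrb:Nanog, NanogKO:Esrrb and NanogKO were 88.3 ± 7.78, 73.6 ± 4.49 and 74.8 ± 4.86 CPM at Myc, 79.1 ± 9.89, 62.5 ± 4.65 and 64.8 ± 7.70 CPM at Mycn, and 67.9 ± 5.84, 56.9 ± 0.610 and 56.6 ± 1.17 CPM at Mycl (SD, n = 3 each). Libraries of NanogKO:Esrrb:Nanog and NanogKO overlapped at Myc and Mycn (exact permutation p = 0.2 each) but not at Mycl (exact permutation p = 0.1). At each gene NanogKO:Esrrb:Nanog was above every NanogKO:Esrrb library (exact permutation p = 0.1 each). NanogKO:Esrrb and NanogKO overlapped (exact permutation p = 0.9, 0.7 and 0.8 at Myc, Mycn and Mycl).

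**Figure D4:**
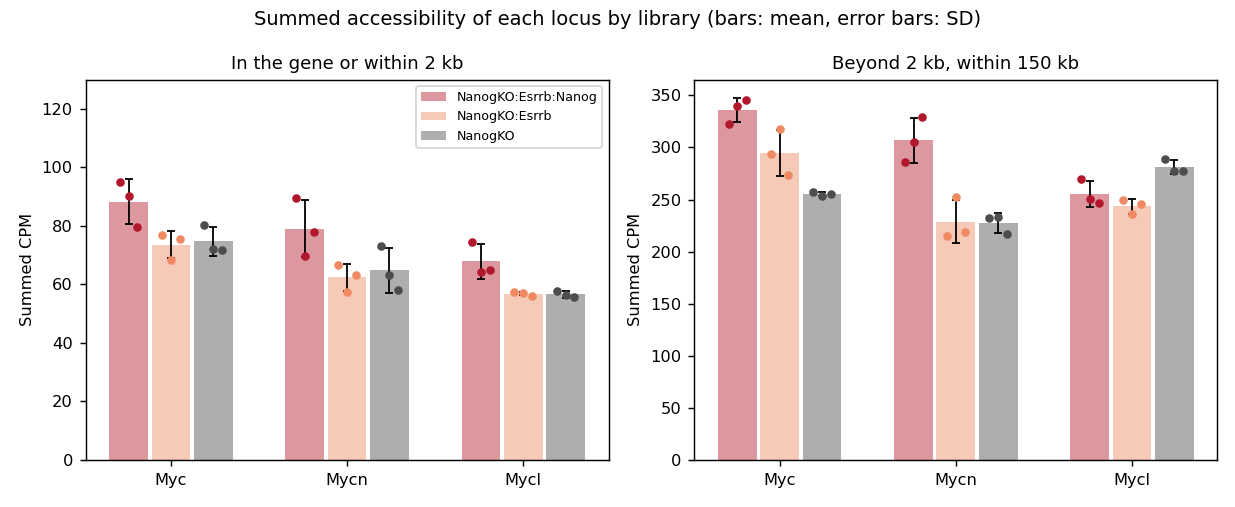
Summed CPM of the regions in the gene or within 2 kb (left) and beyond 2 kb within 150 kb (right) at Myc, Mycn and Mycl, with bars for the group mean, error bars for the SD and points for the 3 libraries of NanogKO:Esrrb:Nanog (red), NanogKO:Esrrb (orange) and NanogKO (grey). Beyond 2 kb the groups step down at Myc, NanogKO:Esrrb:Nanog alone stands higher at Mycn, and NanogKO is highest at Mycl.

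The deposited peak lists, of which each group has one, held a peak in all 3 lists at 29 of the 42 regions at Myc, 31 of 47 at Mycn and 26 of 39 at Mycl. The Myc region at 22316 bp had a peak in the NanogKO:Esrrb:Nanog list alone, and the falling region at 63206 bp in Pvt1 in the NanogKO list alone. Regions outside the peak lists were not counted, so both were counted through the group in which they were highest. Their peaks and fold changes are therefore not separate evidence. Peaks in the NanogKO:Esrrb:Nanog and NanogKO:Esrrb lists but not in that of NanogKO were found at 4 regions at Myc, 6 at Mycn and 2 at Mycl, among them the Mycn region in Gm40271. The peak names in the NanogKO:Esrrb:Nanog list carry a library number that the titles give to a NanogKO:Esrrb sample, so its membership is reported as deposited and was not used in any test. With one list per group there is no replicate check.

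Across the 9 libraries, the summed accessibility of Myc was most like that of Galnt10 (Pearson's r = 0.995), 1700021F07Rik (0.994) and Tmem104 (0.992) among 10100 protein-coding genes with at least 5 regions, where the median r was 0.24. For Mycn, the nearest were Spock1 (0.992), Ifitm1 (0.992) and Nuak1 (0.986), with a median r of 0.29. For Mycl, over its 8 nearest regions, they were Flvcr1 (0.947), Serpina3n (0.942) and Arhgef2 (0.941), with a median r of 0.31. These values describe 9 libraries in 3 groups that share depth and scaling.

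Genes that work with MYC proteins were read from 3 lists, over regions within 50 kb of a listed gene that was the nearest protein-coding gene. Among 84 regions of 10 dimer partners and antagonists, 19 were higher and 14 lower in NanogKO:Esrrb:Nanog than in NanogKO (39.3% called, median log2 fold change 0.10), 9 were higher and 7 lower in NanogKO:Esrrb against NanogKO (19.0%, -0.07), and 16 were higher and 6 lower in NanogKO:Esrrb:Nanog than in NanogKO:Esrrb (26.2%, 0.11). Over all regions 49.3%, 37.0% and 24.6% were called, so the share at these genes was lower against NanogKO and near that of all regions between the other groups. With library totals as the only scaling, the first and last of these splits became 12 higher and 15 lower, and 9 higher and 9 lower. The count for NanogKO:Esrrb:Nanog against NanogKO was 21 in all without NanogKO replicate 2, that for NanogKO:Esrrb against NanogKO 10 without NanogKO replicate 2 or NanogKO:Esrrb replicate 3, and the last 14, 10 and 11 without NanogKO:Esrrb replicate 2, NanogKO:Esrrb:Nanog replicate 1 and NanogKO:Esrrb:Nanog replicate 2. At Max, the obligate partner of the MYC proteins, a region 19024 bp away (chr12:76981347-76982326, chosen like the other examples of these lists after values were seen) had 2.76, 2.55 and 2.94 CPM in NanogKO:Esrrb:Nanog, 4.99, 5.12 and 5.62 CPM in NanogKO:Esrrb, against 8.80, 7.73 and 8.31 CPM in NanogKO. The groups did not overlap, and the log2 fold change was -1.58 ± 0.15 for NanogKO:Esrrb:Nanog and -0.66 ± 0.14 for NanogKO:Esrrb against NanogKO (adjusted p = 2.2e-09 and 0.00063). Of the 15 regions at Max, 3 were higher and 4 lower in NanogKO:Esrrb:Nanog than in NanogKO. In NanogKO:Esrrb against NanogKO, 1 was higher and 1 lower. Other MAX partners that oppose MYC were compared between NanogKO:Esrrb:Nanog and NanogKO. Of 9 regions at Mxd1 3 were higher and 2 lower, and of 8 at Mga 2 and 1. Of 20 at Mxi1 3 were higher and 3 lower, and of 4 at Mxd4 1 and 1. Only rises were called at Mnt (3 of 7 regions) and Mxd3 (2 of 4). The regions of smallest p differed by -2.70 ± 0.33 at Mxd1, -2.04 ± 0.22 at Mga, 0.76 ± 0.16 at Mxi1 and -1.66 ± 0.32 at Mxd4 (adjusted p = 1.3e-07, 1.4e-08, 0.00027 and 0.00011). At Mnt and Mxd3 they differed by 0.99 ± 0.15 and 1.05 ± 0.18 (adjusted p = 3.5e-06 and 1.7e-05).

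Of 129 regions at 13 cofactors and regulators of MYC stability, 44 were higher and 19 lower in NanogKO:Esrrb:Nanog than in NanogKO (48.8%, median 0.16), 27 higher and 14 lower in NanogKO:Esrrb against NanogKO (31.8%, 0.09), and 22 higher and 12 lower in NanogKO:Esrrb:Nanog than in NanogKO:Esrrb (26.4%, 0.07). These shares were near or below the 49.3%, 37.0% and 24.6% of all regions, and the last split was 16 and 17 with library totals as the only scaling. That last count was 21 without either NanogKO:Esrrb:Nanog replicate 1 or NanogKO:Esrrb:Nanog replicate 2. At Wdr5, which encodes a chromatin adaptor that binds MYC, 10 of 12 regions were higher in NanogKO:Esrrb:Nanog than in NanogKO. In this comparison 24.9% of all regions were higher. The Wdr5 region of smallest p in it, 35260 bp away (chr2:27571795-27572708), had 26.4, 26.3 and 24 CPM in NanogKO:Esrrb:Nanog, 18.7, 17.6 and 15.5 CPM in NanogKO:Esrrb, against 2.78, 3.05 and 3.53 CPM in NanogKO. The gap lay mainly between NanogKO and both other groups, with log2 fold changes of 3.03 ± 0.13 and 2.46 ± 0.13 (adjusted p = 1.0e-14 and 9.2e-13). At Ruvbl1, the gene of an ATPase in MYC-bound complexes, chr6:88482871-88483465 had 18.6, 24 and 26.2 CPM in NanogKO:Esrrb:Nanog, 5.07, 5.54 and 4.89 CPM in NanogKO:Esrrb, against 2.93, 2.72 and 3.57 CPM in NanogKO. Here NanogKO:Esrrb:Nanog stood far above the rest, by 2.90 ± 0.15 against NanogKO and 2.15 ± 0.14 against NanogKO:Esrrb (adjusted p = 7.9e-14 and 4.1e-10). Of the 5 regions at Ruvbl1, 2 were higher and 2 lower in NanogKO:Esrrb:Nanog than in NanogKO. In NanogKO:Esrrb against NanogKO, 1 was higher and 2 lower. The shares of all regions were 24.9% higher and 24.4% lower in the first of these comparisons, and 20.0% and 17.0% in the second.

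Of 116 regions at 19 MYC target genes of growth, 40 were higher and 15 lower in NanogKO:Esrrb:Nanog than in NanogKO (47.4%, median 0.21), 27 higher and 18 lower in NanogKO:Esrrb against NanogKO (38.8%, 0.11), and 18 higher and 6 lower in NanogKO:Esrrb:Nanog than in NanogKO:Esrrb (20.7%, 0.08). These shares also lay near those of all regions (49.3%, 37.0% and 24.6%). The first and last splits were 31 and 19, and 13 and 8, with library totals as the only scaling. The count for NanogKO:Esrrb against NanogKO was 28 without NanogKO replicate 1 and 29 without NanogKO:Esrrb replicate 1, and the last was 13 without NanogKO:Esrrb replicate 3, 15 without NanogKO:Esrrb:Nanog replicate 2 and 42 without NanogKO:Esrrb:Nanog replicate 3. Ccnd2, the gene of cyclin D2, had 8 of 12 regions higher in NanogKO:Esrrb:Nanog than in NanogKO, where 24.9% of all regions were higher. Its region of smallest p (chr6:127130299-127130961, in the gene) had 36.5, 35.8 and 41.9 CPM in NanogKO:Esrrb:Nanog, 20.1, 22.4 and 19.5 CPM in NanogKO:Esrrb, against 8.85, 7.46 and 8.35 CPM in NanogKO. The groups did not overlap, and each comparison was called, with log2 fold changes of 2.21 ± 0.12, 1.33 ± 0.12 and 0.88 ± 0.11 (adjusted p = 1.4e-13, 2.2e-09 and 6.4e-06). At Odc1, the gene of the first enzyme of polyamine synthesis, NanogKO:Esrrb:Nanog had 7 of 17 regions higher and 3 lower against NanogKO. In this comparison 24.9% of all regions were higher and 24.4% lower.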

How the data were processed

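ATAC-seq counts were deposited as one table of raw read counts per region, whole numbers without normalization, for 9 libraries, and the authors also deposited one peak list per group, whose score per peak is their own value. The build was mm10, per the submitters' processing notes. These name MACS2 2.2.0, bedtools 2.26.0, Bowtie2, cutadapt, deepTools 4.4.0, bcl2fastq 2.19.1 and SAMtools 1.4.1, with no role for any of them. Counting, the transposase shift, filters and removal of duplicates are not given in the sources used here, and regions outside the peak lists were not counted. The members and gene lists were chosen with earlier results of these data known.

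Regions were placed by the RefSeq annotation GRCm38.p6, and distances run to gene spans. All 9 libraries entered 1 fit of group means in edgeR 4.0.16 (R 4.3.3) with TMM factors and filterByExpr, which kept 157439 regions and left 6 residual degrees of freedom. Each adjusted p comes from its quasi-likelihood test with Benjamini-Hochberg adjustment over those regions, with calls under 0.05. Fold changes are log2 with standard errors (SE). CPM used TMM-scaled totals, and components log2 CPM with a pseudocount of 1. The main edgeR fit was also run for each comparison on simulated counts with 200 regions changed. The alternative fits were not run on simulated counts. Sums were compared by exact permutation over libraries.

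Named regions at a locus were those at the 5′ end (for Myc, the low-coordinate end), of highest mean CPM, in the gene (up to 4, by mean CPM) and, per comparison, the 2 called rises and 2 called falls of smallest p. To see whether replicate numbers pair libraries, deviations from group means were correlated. For same-numbered libraries r was 0.117 to 0.152 between NanogKO:Esrrb and NanogKO. It was 0.105 to 0.146 between NanogKO:Esrrb:Nanog and NanogKO:Esrrb, and 0.0022 to 0.136 between NanogKO:Esrrb:Nanog and NanogKO. For libraries of different number r was -0.0946 to -0.0476, -0.0976 to -0.032 and -0.0906 to 0.0445 in the same order. Pairing was not settled from these values, and the main fit had no replicate block. No 2 libraries of a group were copies, since their counts differed by a chi-square of 3.55 to 9.50 per region. Alternatives were other scalings, limma 3.58.1 after quantile normalization, DESeq2 1.42.0, no filter, 2 groups per fit, a replicate block, each library left out, and other limits of a locus. The same fits for the gene lists were added after seeing the data.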

Additional observations from a re-analysis of the deposited data

How the results depend on the processing

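Each fold change of a named region was recomputed under 16 alternatives, and of 56 called ones 43 kept their call under all and 0 changed sign under any. Calls of the other 13 were lost under at least 1 alternative, mostly with a library left out. Many named regions were picked as the calls of smallest p in the main fit, so this tally does not stand for all calls at the loci. The numbers of calls at Myc and Mycn stayed within 1.5 times under every other scaling, tool, filter and fit, the replicate block included, where they were 19, 17 and 9 at Myc and 36, 23 and 24 at Mycn for NanogKO:Esrrb:Nanog against NanogKO, NanogKO:Esrrb against NanogKO and NanogKO:Esrrb:Nanog against NanogKO:Esrrb. Among the named regions, the block changed no other call than those given with the regions, while the counts show that calls at unnamed regions also changed. Within 50 kb of the gene, where fewer regions were tested, the calls in these comparisons were 9, 6 and 4 at Myc, 9, 5 and 8 at Mycn, and 7, 6 and 2 at Mycl, and without regions nearer another gene 3, 3 and 1 at Mycl. The Mycl count for NanogKO:Esrrb:Nanog against NanogKO:Esrrb was 2 with library totals only, 2 with quantile normalization and 1 with only these groups in the fit, and the cause was not tested. With a library left out it ranged from 0 to 6, and that at Mycn from 13 to 23. At the gene lists, leaving out a library gave 21 to 33, 10 to 19 and 10 to 28 calls for the dimer partners, 21 to 49 for the cofactors in NanogKO:Esrrb:Nanog against NanogKO:Esrrb, and 28 to 48 and 13 to 42 for the target genes in the last 2 comparisons. The dimer partners had 13 calls in NanogKO:Esrrb:Nanog against NanogKO:Esrrb with quantile normalization, 8 higher and 5 lower, and the cofactors 24 in NanogKO:Esrrb against NanogKO within 10 kb. With peaks at or above the median score of their list, 12, 14 and 16 regions at Myc, Mycn and Mycl had a peak in all 3 lists. Library totals as the only scaling moved the median of all regions to -0.10 for NanogKO:Esrrb:Nanog against NanogKO and -0.11 against NanogKO:Esrrb, and the split of all calls in the last comparison to 12765 higher and 25391 lower, beside 19777 and 18935. Without NanogKO:Esrrb:Nanog replicate 3 it was 24714 and 25288, and without NanogKO:Esrrb replicate 3 it was 12526 and 12066. The counts at the loci and gene lists with a library left out stand beside such changes over all regions.

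Sign changes were found only for differences that were not called, all close to 0 on the log2 scale. With library totals only and with quantile normalization, chr15:61985387-61985870 gave -0.030 and -0.072 for NanogKO:Esrrb:Nanog against NanogKO and -0.097 and -0.15 against NanogKO:Esrrb. In the same order, chr15:61987892-61988281 gave -0.0077 and -0.039 against NanogKO, chr12:12942241-12942902 gave -0.041 and -0.072 against NanogKO and -0.0010 and -0.060 against NanogKO:Esrrb, chr4:122885559-122886782 gave -0.083 and -0.12 against NanogKO:Esrrb, and chr4:122996928-122997397 gave -0.027 and -0.055 against NanogKO:Esrrb. Library totals gave -0.077 at chr15:62053567-62053817, and quantile normalization -0.0021 at chr15:62092412-62093203, both against NanogKO:Esrrb, and -0.022 at chr4:122995376-122996716 against NanogKO. Leaving out a library, NanogKO:Esrrb:Nanog against NanogKO ranged from -0.092 to 0.18 at chr15:61987892-61988281, from -0.084 to 0.24 at chr12:12942241-12942902, from -0.20 to 0.0057 at chr4:122885559-122886782 and from -0.0016 to 0.21 at chr4:122995376-122996716. NanogKO:Esrrb against NanogKO ranged from -0.33 to 0.078 at chr15:61838535-61838878, from -0.065 to 0.14 at chr15:62092412-62093203, from -0.26 to 0.0020 at chr12:12937051-12937710 and from -0.18 to 0.13 at chr12:12942241-12942902. NanogKO:Esrrb:Nanog against NanogKO:Esrrb ranged from -0.050 to 0.10 at chr15:61985387-61985870, from -0.12 to 0.12 at chr15:62053567-62053817, from -0.42 to 0.0025 at chr12:12920208-12921214, from -0.033 to 0.18 at chr12:12942241-12942902, from -0.095 to 0.34 at chr4:122849871-122850091 and from -0.11 to 0.12 at chr4:122885559-122886782. Low counts limit small differences: the fewest counts of a region in a library were 9.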
